A study of Arabidopsis thaliana with 6 samples.

Results

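The genes carried by the chloroplast and the mitochondrial genome were examined in leaf RNA of Arabidopsis thaliana, taken as every gene whose identifier begins with ATCG (chloroplast) or ATMG (mitochondrion). They are 96 chloroplast and 125 mitochondrial genes, 221 of the 62524 features counted, which are 31335 genes and 31189 transposable elements. The plants were Col-0, aged 28 days, grown on soil at 21 °C with 16 h of light and 8 h of darkness after 48 h at 4 °C. Wild type was compared with ddcc, which carries mutations in DRM1, DRM2, CMT2 and CMT3, the DNA methyltransferases that methylate cytosines outside CG dinucleotides. Each genotype had 3 libraries of polyadenylated RNA purified from 500 ng of total RNA. The labels do not say that libraries came from separate plants, so p-values measure the spread between these libraries.

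Chloroplasts and mitochondria keep small genomes of their own, which encode part of the photosynthetic and respiratory complexes together with ribosomal proteins, rRNAs and tRNAs. Their transcripts mostly lack the stable poly(A) tail of nuclear mRNA, and in both organelles of plants a tail added to an RNA promotes its degradation. The counts below describe the organelle RNA that passed poly(A) selection, not all organelle RNA. In leaf tissue, fewer organelles or cells and less RNA per organelle or cell cannot be told apart.

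Library totals ranged from 15188586 to 18809306 counts. The leaf markers RBCS1A and CAB1, nuclear genes of carbon fixation and light harvesting, were at least 13438 CPM (counts scaled to a common library size) in every library. The targeted genes DRM2, CMT3 and CMT2 were lower in ddcc, by log2 fold changes of -1.14, -1.69 and -0.46, with edgeR adjusted p of 4.5e-06, 1.4e-05 and 0.0021, and the counts of none of them overlapped between genotypes. The TAIR10.1 annotation lists no organelle identifier as a locus tag, so most of these genes are given by identifier alone. A gene product is named only where a note on a nuclear relative in that annotation gives the chloroplast or mitochondrial identifier, which was so for 6 chloroplast identifiers used here and 53 mitochondrial ones.

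Chloroplast genes took about 0.2% of all counts, and the genotypes overlapped. Their share was 0.174%, 0.177% and 0.208% in wild-type replicates 1, 2 and 3, and 0.200%, 0.210% and 0.194% in ddcc replicates 1, 2 and 3. Wild-type replicate 3 was within the range of the ddcc libraries, and the other two wild-type libraries were below all of them. Wild type averaged 0.187% ± 0.019 and ddcc 0.202% ± 0.0080 (SD, n = 3 each), a ratio of 1.08 (exact two-sided permutation test, p = 0.3, where 3 against 3 libraries cannot give a p below 0.1). Without wild-type replicate 3 the ratio was 1.147 and every remaining ddcc library was above every remaining wild-type library. As that library alone made the groups overlap, this separation was fixed by leaving it out and is no test of a difference. Counting error was small beside these differences: the 95% Wilson interval of wild-type replicate 3 was 0.206% to 0.211%. Such intervals cover counting error only, since amplified reads are not independent molecules.

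**Figure D1:**
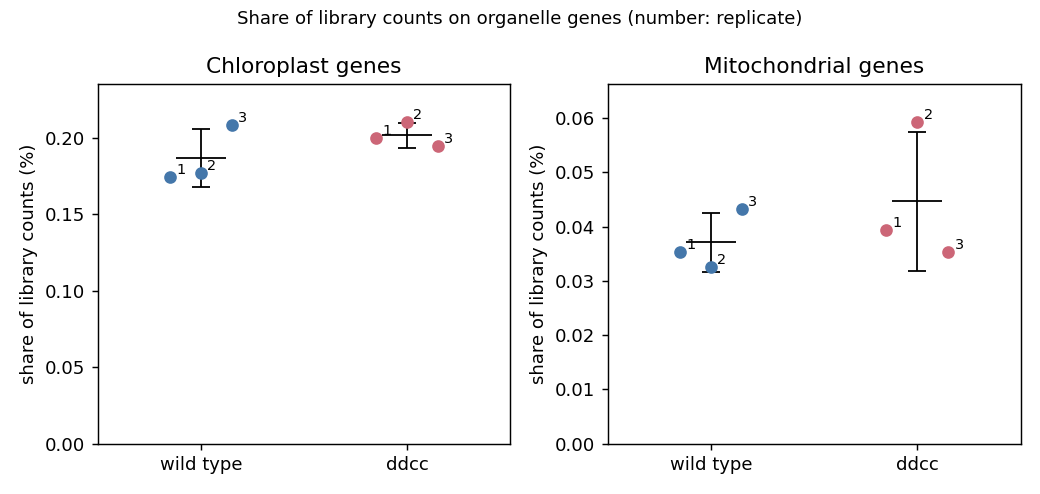
Share of library counts (percent, vertical axis from 0) on the 96 chloroplast genes (left) and the 125 mitochondrial genes (right) for wild type (blue) and ddcc (red). Points are libraries labelled by replicate number, and the black marks show the mean and SD of 3 libraries. The chloroplast share of wild-type replicate 3 (0.208%) lies among the ddcc libraries, and the mitochondrial share of ddcc replicate 2 (0.0593%) lies above every other library.

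Of the 96 chloroplast genes, 21 had 0 counts in every library and 71 passed the filter on low counts and were tested. The other 4 had counts too low to test, at most 33 over the 6 libraries together. Among the tested genes, 24 each held at least 1% of the chloroplast counts and 6 held at least 5%.

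A gene at 0 need not have lacked RNA, and the sequence of the chloroplast genome shows one place where counting could matter. ATCG01310, whose product is the ribosomal protein L2, had 0 counts in all 6 libraries. In TAIR10.1 its gene, rpl2, is annotated at Pltd:84337-85843 on the minus strand and at Pltd:152806-154312 on the plus strand, inside the 2 arms of the inverted repeat (84171 to 110434 and 128215 to 154478). The arms are 26264 bases long and 100% identical. They hold 17 protein-coding or rRNA genes and 14 tRNA genes, both copies counted. The first 60 bases of rpl2 (RefSeq, TAIR10.1) are printed from both arms, 5′ to 3′ on the coding strand, because a read from one arm reads the same as a read from the other; no base is in capitals, since none differs.
rpl2, Pltd:85784-85843, minus strand: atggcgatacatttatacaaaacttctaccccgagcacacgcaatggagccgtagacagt
rpl2, Pltd:152806-152865, plus strand: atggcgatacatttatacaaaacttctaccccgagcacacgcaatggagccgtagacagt
How the authors treated reads that match more than one place is not given in the sources used here, and its part in the value of 0 was not tested.

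The chloroplast gene with the most counts, ATCG00020, held 14.2% of them. Its level was 235, 235 and 342 CPM in wild-type replicates 1, 2 and 3, and 282, 279 and 283 CPM in ddcc replicates 1, 2 and 3. Wild-type replicate 3 was the highest of all 6 libraries and the other wild-type libraries were the lowest, so the groups overlapped; the log2 fold change was 0.06 ± 0.12 (SE; edgeR quasi-likelihood test with Benjamini-Hochberg adjustment, adjusted p = 0.77). Without wild-type replicate 3 the same gene had a log2 fold change of 0.26 (adjusted p = 0.011), the 1 call in the 6 fits that left out a library. Over those fits its adjusted p ran from 0.011 to 0.89.

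The next genes in abundance were ATCG00480, ATCG00490, ATCG00340, ATCG00280, ATCG00680, ATCG00350 and ATCG00790, which with ATCG00020 took 56.2% of chloroplast counts. ATCG00480 measured 159 ± 18 CPM in wild type against 168 ± 4.4 CPM in ddcc (SD, n = 3). ATCG00490 measured 156 ± 33 CPM in wild type against 148 ± 6.2 CPM in ddcc. None of the 8 passed the test, with log2 fold changes from -0.08 for ATCG00490 to 0.21 for ATCG00680. The level of ATCG00680 was 85.8, 90.8 and 107 CPM in wild type against 99.3, 123 and 106 CPM in ddcc (adjusted p = 0.13). It overlapped only through wild-type replicate 3, and without that library its log2 fold change was 0.31 (adjusted p = 0.040). That was the 1 call in the 6 fits that left out a library. Over those fits the log2 fold change ran from 0.12 to 0.31 and adjusted p from 0.040 to 0.34.

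Across the 71 tested genes, 3 were called higher in ddcc and 0 lower by edgeR at an adjusted p under 0.05. That is 4.23% of the tested chloroplast genes called higher, beside 15.5% of all 18498 tested features called higher and 12.7% called lower. At an unadjusted p under 0.05 there were 6 higher and 0 lower, 8.45% of the 71, beside 39.5% of all features. DESeq2 called 1 higher, ATCG01020, and 0 lower, beside 12.9% of all features called higher. In 5 of the 71 genes (7.04%), ATCG00065 and ATCG00070 and the called ones, every ddcc library was above every wild-type library, beside 22.5% of all features, and in 0 every ddcc library was below, beside 21%. The median log2 fold change was 0.07, against -0.0034 for all features, and 47 of the 71 genes (66.2%) were above 0, against 49.5% of all features. Fold changes ran from -0.35 to 0.77, with 70 of 71 within 0.5 of 0 and a median SE of 0.14.

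**Figure D2:**
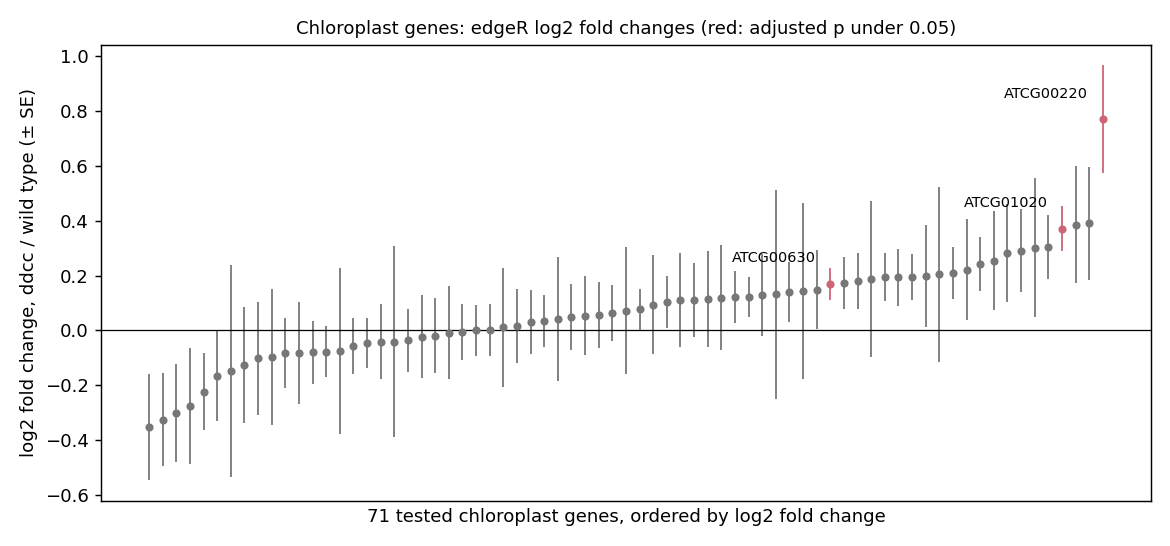
Log2 fold change of ddcc over wild type (vertical axis, points) with its SE (bars) for the 71 tested chloroplast genes, ordered from lowest to highest. Red marks the 3 genes with an adjusted p under 0.05 (ATCG01020, ATCG00220 and ATCG00630); all others lie between -0.35 and 0.39.

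ATCG01020 was the called gene with the smallest p. Its level was 23.7, 22.4 and 19.97 CPM in wild type against 30.8, 27.2 and 27.7 CPM in ddcc. Every ddcc library was above every wild-type library, and the log2 fold change was 0.37 ± 0.08 (SE, adjusted p = 0.0068). It was called with any 1 library left out, at log2 fold changes from 0.31 to 0.43. With the chloroplast total as library size its log2 fold change was 0.28 and it was no longer called (adjusted p = 0.078).

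ATCG00220 had the highest fold change of the 71. Its level was 35.6, 21.7 and 19.97 CPM in wild type against 54.2, 40.0 and 38.2 CPM in ddcc. The groups did not overlap, although wild-type replicate 1 lay closer to the lower ddcc libraries than to the other wild-type libraries. The log2 fold change was 0.77 ± 0.20 (SE, adjusted p = 0.014). The call was lost without wild-type replicate 2 (0.66, adjusted p = 0.067) or wild-type replicate 3 (0.62, adjusted p = 0.059), in DESeq2 (adjusted p = 0.054) and in the robust fit (adjusted p = 0.14).

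ATCG00630 moved least of the called genes, from 44.9, 43.4 and 46.6 CPM in wild type to 50.4, 48.9 and 52.4 CPM in ddcc. The groups did not overlap, and the log2 fold change was 0.17 ± 0.06 (SE, adjusted p = 0.049). It was called in 1 of the 6 fits that left out a library, the one without ddcc replicate 2, and over those fits its adjusted p ran from 0.042 to 0.16. With the chloroplast total as library size its adjusted p was 0.64. The number of chloroplast genes called was 1 without wild-type replicate 2, 5 without wild-type replicate 3 and 6 without ddcc replicate 2. Only ATCG01020 was called in all of these fits. The share of all features called in them is not given here.

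Among the genes with a named product, ATCG00430 was annotated as photosystem II reaction center protein G, an early name of a gene since renamed ndhK, a subunit of the chloroplast NADH dehydrogenase-like complex. It measured 57.2, 59.2 and 49.2 CPM in wild type against 62.5, 57.5 and 60.2 CPM in ddcc. The groups overlapped, with wild-type replicate 3 the lowest library, and the log2 fold change was 0.12 ± 0.07 (SE, adjusted p = 0.24). ATCG00420 was matched to ndhJ, another subunit of that complex, since the nuclear pseudogene noted as its relative aligned within ndhJ. It measured 30.6, 22.7 and 24.6 CPM in wild type against 28.1, 29.0 and 31.2 CPM in ddcc. The highest wild-type library was above 2 of the ddcc libraries, and the log2 fold change was 0.18 ± 0.10 (SE, adjusted p = 0.22). Without wild-type replicate 1 it was 0.32 (adjusted p = 0.020), the 1 call in the 6 fits that left out a library. Over those fits it ran from 0.09 to 0.32, with adjusted p from 0.020 to 0.57.

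The nuclear relative of ndhJ is a fragment on chromosome 4, AT4G13285, which had 0 counts in every library. It aligned over 169 bases at 88.2% identity, with 20 differences. A stretch of 60 bases from each (RefSeq, TAIR10.1, coding strand) shows how far they stand apart: capitals mark the 5 bases that differ.
ndhJ, Pltd:48999-49058, minus strand: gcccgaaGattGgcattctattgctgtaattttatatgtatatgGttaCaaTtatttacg
AT4G13285, chr4:7738696-7738755, plus strand: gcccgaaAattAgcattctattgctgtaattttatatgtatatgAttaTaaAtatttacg

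The other named products were cemA (ATCG00530), a protein of the chloroplast envelope membrane, clpP (ATCG00670), a proteolytic subunit of the Clp protease, and the ribosomal protein rpl20 (ATCG00660). Per kilobase of coding length, ndhJ had 54.4 ± 8.7 CPM in wild type against 61.8 ± 3.4 CPM in ddcc, and clpP at 28.9 ± 1.0 and 32.7 ± 4.1 CPM (SD, n = 3). The level of cemA was 15.9 ± 1.1 and 16.2 ± 1.1 CPM per kilobase, and that of rpl20 5.41 ± 0.15 and 5.88 ± 0.59. By coding length, the order ndhJ, clpP, cemA, rpl20 held without overlap of any neighbours over the 6 libraries: ndhJ ranged from 47.5 to 65.5, clpP from 27.8 to 35.8, cemA from 14.9 to 17.5 and rpl20 from 5.27 to 6.46 CPM per kilobase. The clpP gene spans 1973 bases, of which 591 are coding, and whether reads of its other bases were counted is not known. The place of clpP above cemA therefore holds for the coding length only. None of these 4 genes passed the test between genotypes, with adjusted p from 0.20 for clpP to 0.82 for cemA. Without ddcc replicate 1, clpP was called at a log2 fold change of 0.27 (adjusted p = 0.033). That was the 1 call in the 6 fits that left out a library. Over those fits its log2 fold change ran from 0.10 to 0.27 and its adjusted p from 0.033 to 0.51.

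Chloroplast genes varied more between libraries of a genotype than nuclear genes did. Over the 41 chloroplast genes with a mean of at least 100 counts, the median SD of log2 CPM within a genotype was 0.168, against 0.0924 for 12947 nuclear genes past the same limit. The sets were not matched for count level, and the part of counting error in this gap was not tested. Wild-type replicate 3 was the highest wild-type library for 25 of the 41 genes, ATCG00020, ATCG00340 and ATCG00490 among them, and the lowest for 11, ATCG00220, ATCG00790 and ATCG01020 among them. Wild-type replicate 1 was the lowest for 21 of the 41. In ddcc, replicate 2 was the highest for 19 genes and replicate 1 the lowest for 19. ATCG01050 stood out within ddcc, with 27.9, 16.4 and 30.6 CPM in replicates 1, 2 and 3 beside 19.1, 22.0 and 23.3 CPM in wild type; it was chosen after its values were seen.

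**Figure D3:**
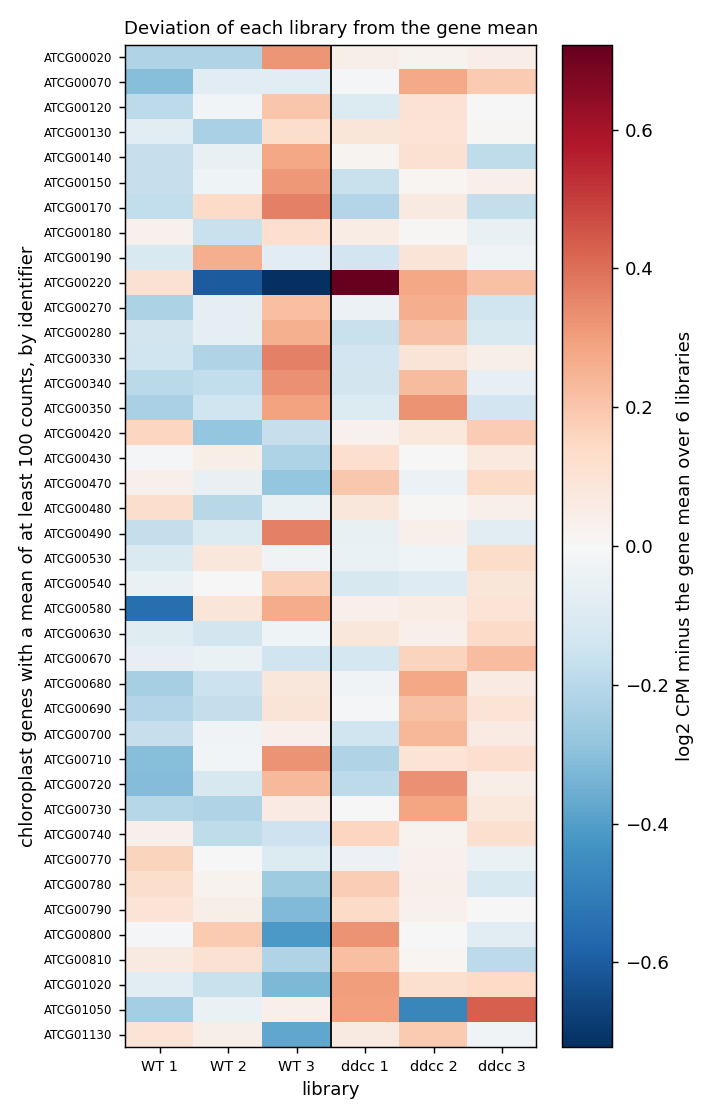
Deviation of each library (columns) from the gene's mean over 6 libraries in log2 CPM (colour, red above and blue below) for 40 of the 41 chloroplast genes with a mean of at least 100 counts (horizontal bands, in order of identifier). The colour scale ends at the largest deviation, 0.72. Wild-type replicate 3 shows the most red bands within wild type, being its highest library for 25 of all 41 genes, and ATCG00220 shows the widest spread between libraries.

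Mitochondrial genes took a smaller share of the counts than chloroplast genes in every library, and the genotypes overlapped here too. It was 0.0353%, 0.0327% and 0.0433% in wild-type libraries, and 0.0394%, 0.0593% and 0.0353% in those of ddcc. ddcc replicate 2 was above every other library, while the other ddcc libraries were within the wild-type range. Wild type averaged 0.0371% ± 0.0055 and ddcc 0.0447% ± 0.013 (SD, n = 3 each), a ratio of 1.20 (exact two-sided permutation test, p = 0.6). Without ddcc replicate 2 the ratio was 1.01, and the difference between the means fell from 0.00759 to 0.000293 percentage points.

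Of the 125 mitochondrial genes, 73 had 0 counts in every library, 35 had counts too low to test, at most 48 over the 6 libraries together, and 17 were tested. A few genes carried the share: ATMG00020, ATMG01390 and ATMG00030 together took 93.7% of the mitochondrial counts. ATMG00020 and ATMG01390 are 2 of the 3 mitochondrial entries whose feature name lacks the Araport11 tag, and the other, ATMG01380, had 5 to 10 counts in each library. Among nuclear features matched to the annotation, that tag was on 27439 protein-coding genes and 1 pseudogene, and 0 of 3674 features without the tag were protein-coding.

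ATMG00020 measured 203, 180 and 244 CPM in wild-type libraries, and 216, 338 and 203 CPM in those of ddcc. ATMG01390 measured 118, 108 and 136 CPM in wild-type libraries, and 120, 184 and 101 CPM in those of ddcc. ATMG00030 measured 21.2, 19.8 and 26.3 CPM in wild type against 25.2, 35.1 and 22.0 CPM in ddcc. All 3 were highest in ddcc replicate 2, second in wild-type replicate 3, and overlapped between genotypes. ATMG00020 kept between 54.5% and 57.8% of the mitochondrial counts in every library, and ATMG01390 between 28.6% and 32.6%. Their log2 fold changes were 0.27 ± 0.17, 0.17 ± 0.18 and 0.29 ± 0.16 (SE, adjusted p = 0.27, 0.53 and 0.20). Without ddcc replicate 2 those of ATMG00020 and ATMG01390 were 0.01 and -0.12.

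The 4 nuclear rRNA loci followed a like order between libraries. They took 0.0626%, 0.0566% and 0.0690% of counts in the libraries of wild type, and 0.0630%, 0.0817% and 0.0547% in those of ddcc. ddcc replicate 2 was again the highest library and wild-type replicate 3 the second. The lowest was ddcc replicate 3, as for ATMG01390, while ATMG00020 and ATMG00030 were lowest in wild-type replicate 2. Nearly all of it came from AT3G41768, at 0.0619% ± 0.0062 for wild type and 0.0656% ± 0.014 for ddcc (SD, n = 3). Another locus, AT2G01020, had a different order and was highest in ddcc replicate 3, with 183 counts. Mature rRNA lacks the poly(A) tail of nuclear mRNA. Whether these reads came from untailed RNA, and their part in the mitochondrial values, was not tested. The tagged mitochondrial genes, all but 3, took 0.00415%, 0.00417% and 0.00515% in wild-type libraries, and 0.00508%, 0.00629% and 0.00482% in those of ddcc, a ratio of 1.20 (exact two-sided permutation test, p = 0.3), with ddcc replicate 2 again the highest. ATMG00030 took between 321 and 613 counts of the 684 to 1086 in this sum in each library. The mitochondrial genes other than the leading 3 are a set made after the values were seen, so no test of it is reported. They took 0.00214%, 0.00224% and 0.00255% in wild-type libraries, and 0.00256%, 0.00280% and 0.00267% in those of ddcc. Here every ddcc library was above every wild-type library, by little for ddcc replicate 1, and the order differed from that of the rRNA loci: ddcc replicate 3 was the second and wild-type replicate 3 the fourth.

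**Figure D4:**
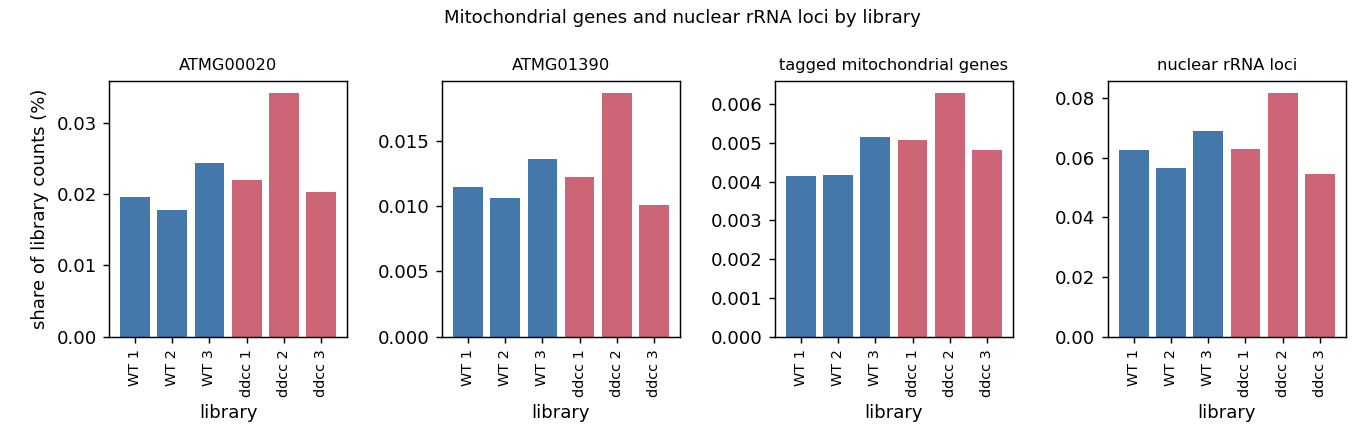
Share of library counts (percent, vertical axes from 0 with a scale of their own) in each of 6 libraries for ATMG00020, ATMG01390, the 122 mitochondrial genes with the Araport11 tag, and the 4 nuclear rRNA loci. Blue bars are wild type and red bars ddcc. In all 4 panels ddcc replicate 2 is the highest library, at 0.0342%, 0.0187%, 0.00629% and 0.0817%, and wild-type replicate 3 the second; the mitochondrial genes without the leading 3, not drawn, had another order.

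None of the 17 tested mitochondrial genes was called by edgeR, beside the 28.2% of all features called in either direction. At an unadjusted p under 0.05 there was 1 with edgeR (5.88% of 17, beside 39.5% of all features) and 0 with DESeq2. After adjustment DESeq2 also called 0. The median log2 fold change was 0.23, with 12 above 0 and 5 below, a median SE of 0.25 and a range from -0.18 to 0.61. The 14 tested genes other than the leading 3 had at most 90 counts in any library, so only large differences were detectable at this depth. ATMG00080, chosen after its values were seen, was the one gene whose groups did not overlap (5.88% of 17, beside 22.5% of all features with ddcc higher), with counts of 17, 15 and 20 in the wild-type libraries against 34, 30 and 25 in those of ddcc. Every ddcc library was above every wild-type library, and the log2 fold change was 0.58 ± 0.25 (SE, adjusted p = 0.11).

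ATMG00090, ATMG01360, ATMG00660, ATMG00640 and ATMG00060 completed the 8 mitochondrial genes with the highest levels. ATMG00090 measured 4.00 ± 0.12 CPM in wild type against 4.12 ± 0.64 CPM in ddcc (SD, n = 3). ATMG01360 measured 1.81, 2.22 and 2.82 CPM in wild type against 2.81, 3.09 and 3.26 CPM in ddcc. It overlapped by one wild-type library, replicate 3, with a log2 fold change of 0.43 ± 0.20 (SE, adjusted p = 0.14). ATMG00660 was the only one of the 8 with a fold change below 0, at -0.18 ± 0.22 (SE, adjusted p = 0.58).

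Much of the mitochondrial genome has a copy in the nucleus, so that a read from either place can match both. In TAIR10.1, 72.9% of the 367808 bases of the mitochondrial genome aligned to nuclear chromosomes at 99% identity or more over at least 100 bases, and 72.7% to chromosome 2. For the 154478 bases of the chloroplast genome the figure was 0.403%. Notes on nuclear loci named 53 mitochondrial identifiers, a set chosen for having a nuclear relative, and 50 of these loci aligned to the mitochondrial genome over their whole length. Where the nuclear locus was identical to the mitochondrial sequence, 26 of 27 mitochondrial genes had 0 counts. Where it differed, by at most 6 bases, 15 of 23 had 0 counts and the others at most 32 over the 6 libraries. Of all 53, 42 had 0 counts and 0 were tested, and of the 72 mitochondrial genes in no such note 31 had 0 counts and all 17 tested genes were among them. The identity is that of the nuclear locus, which need not span the same bases as the counted gene.

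One identical and one differing pair show what a read would have to tell apart. ATMG00220, apocytochrome b of respiratory complex III, had 0 counts in all 6 libraries, and its relative AT2G07727 matched the mitochondrial genome over 3243 bases with 0 differences and had 13 counts in all. ATMG01330, with no named product, had 32 counts over the 6 libraries, between 4 and 7 in each. Its relative AT2G07808 aligned over 389 bases with 1 difference and had 0 counts. The aligned mitochondrial bases overlap the annotated gene nad2. The stretch labelled ATMG01330 below is part of that alignment, since the annotation gives this identifier no position. The first coding bases of cob and the stretch around that difference (RefSeq, TAIR10.1, 60 bases, 5′ to 3′) follow, with the differing base in capitals.
cob, MT:182799-182858, minus strand: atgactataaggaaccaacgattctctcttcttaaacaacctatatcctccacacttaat
AT2G07727, chr2:3450863-3450922, plus strand: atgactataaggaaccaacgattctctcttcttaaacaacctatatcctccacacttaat
ATMG01330, MT:94323-94382, minus strand: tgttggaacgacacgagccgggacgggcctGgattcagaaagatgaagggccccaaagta
AT2G07808, chr2:3336963-3337022, plus strand: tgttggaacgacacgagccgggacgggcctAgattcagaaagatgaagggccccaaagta
The exception among the identical pairs was ATMG01320, NADH dehydrogenase 2B of complex I, with 18 counts over the 6 libraries. The mitochondrial sequence used by the authors was not checked against TAIR10.1, and the treatment of reads matching several places was not tested.

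On chromosome 2, 98 features numbered AT2G07660 to AT2G07835, the range that holds the mitochondrial insertion, were counted, of which 67 had 0 counts and 4 were tested. Of their 2847 counts, 2454 belonged to ABCC13, an ABC transporter gene, and MCM5, a DNA replication helicase subunit, which fall in this range by number and are noted as relatives of no mitochondrial gene. ABCC13 fell by 0.29 on the log2 scale (14.1 ± 0.55 CPM in wild type against 11.5 ± 1.4 CPM in ddcc, adjusted p = 0.049), the 1 call among the 4 by edgeR, beside 12.7% of all features called lower. It was called in 1 of the 6 fits that left out a library, and adjusted p ran from 0.015 to 0.15 over those fits.

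Chloroplast genes are read by a plastid-encoded RNA polymerase, whose sigma factors and associated proteins are encoded in the nucleus, and by phage-type polymerases encoded in the nucleus. Of 21 such nuclear genes, all tested, 11 were lower in ddcc and 0 higher by edgeR (52.4% lower, beside 12.7% of all features). This list and those below were chosen with earlier results of these data known, so such shares describe the lists and are no test. At an unadjusted p under 0.05 there were 13 lower, beside 18.6% of all features, and 1 higher, SIGC, beside 21%. In 14 genes every ddcc library was below every wild-type library, beside 21% of all features. In 2 genes, SIGC and PTAC6, every ddcc library was above, beside 22.5% of all features. DESeq2 called 11 lower, with its share over all features not given here, and 0 higher, beside 12.9%. The median log2 fold change was -0.20, against -0.0034 for all features. The number called lower was 6 without wild-type replicate 2, without wild-type replicate 3 or without ddcc replicate 3. The share of all features called in those fits is not given here.

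FLN2, a fructokinase-like protein of the polymerase complex, measured 9.62, 12.3 and 12.8 CPM in wild type against 5.89, 7.95 and 6.15 CPM in ddcc. The groups did not overlap, and it fell by 0.80 ± 0.15 (log2, SE, adjusted p = 0.0024). PTAC12, a polymerase-associated protein also known as HEMERA that acts in phytochrome signalling, measured 25.2, 31.7 and 32.5 CPM in wild type against 19.7, 20.9 and 17.2 CPM in ddcc. Every ddcc library was below every wild-type library, and it fell by 0.63 ± 0.11 (log2, SE, adjusted p = 0.0015). SIGE, a sigma factor responsive to light and stress, measured 15.2, 16.1 and 15.4 CPM in wild type against 11.41, 9.61 and 10.3 CPM in ddcc. It fell without overlap by 0.58 ± 0.09 (log2, SE, adjusted p = 0.00079). PTAC7 fell by 0.46 ± 0.08 (log2, SE, adjusted p = 0.0020), from 70.8 ± 6.9 to 51.4 ± 4.3 CPM (SD, n = 3). These 4 genes were called in each of 14 other fits, at the same threshold, but none reached a log2 fold change of 1.

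The other genes called lower were FLN1, the iron superoxide dismutases FSD2 and FSD3, the thioredoxin TRX z, PDE312, PTAC14 and the sigma factor SIGA, with log2 fold changes from -0.52 for FSD2 to -0.20 for SIGA. Genes without a call are named here and in the next lists by their role, after their values were seen. Among them were the sigma factors SIG2 (-0.15 ± 0.05, adjusted p = 0.063), SIGC (0.13 ± 0.06, adjusted p = 0.12) and SIGF (-0.02 ± 0.06, adjusted p = 0.82). The phage-type polymerase SCA3 measured 16.2 ± 3.7 CPM in wild type against 14.4 ± 0.90 CPM in ddcc (log2 fold change -0.17 ± 0.14, adjusted p = 0.42). Another phage-type polymerase, AT5G15700, had a log2 fold change of 0.16 ± 0.18 (adjusted p = 0.54). It is also counted in the list of mitochondrial transcription and organelle genome maintenance below.

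**Figure D5:**
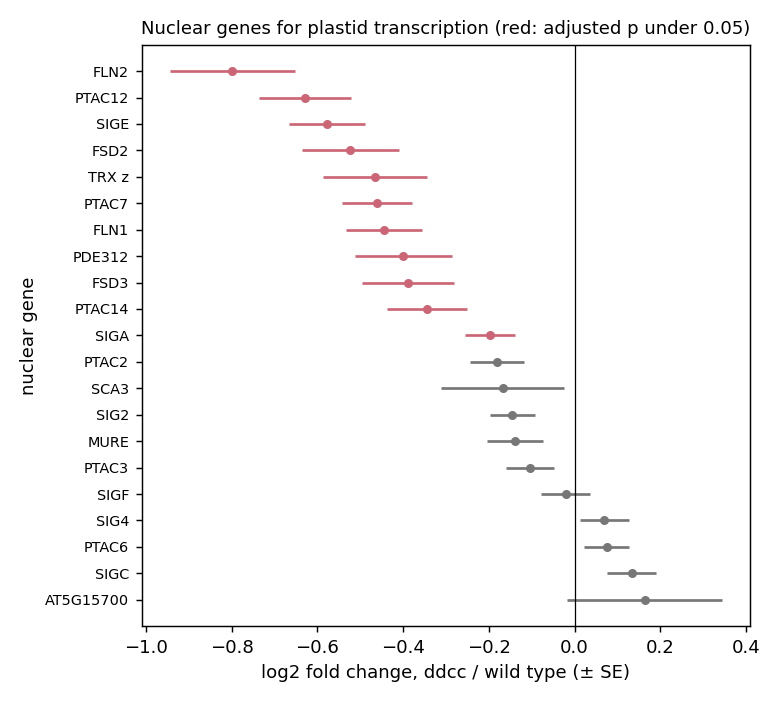
Log2 fold change of ddcc over wild type (horizontal axis, points) with its SE (bars) for 21 nuclear genes of plastid transcription. Red marks the 11 genes called lower at an adjusted p under 0.05, from FLN2 (-0.80) to SIGA (-0.20); no gene to the right of 0 was called.

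Of 8 nuclear genes for organelle RNA turnover, all tested, 2 were lower in ddcc and 0 higher by edgeR (25% lower, beside 12.7% of all features), with 3 lower and 0 higher at an unadjusted p under 0.05, beside 18.6% of all features lower. DESeq2 also called 2 lower, with its share over all features not given here, and 0 higher, beside 12.9%. Both were chloroplast RNA-binding proteins that stabilise or cleave plastid transcripts. CRB, also called CSP41B, measured 591, 620 and 603 CPM in wild-type libraries, and 502, 496 and 479 CPM in those of ddcc, and fell by 0.30 ± 0.05 (log2, SE, adjusted p = 0.0011). CSP41A measured 509, 528 and 504 CPM in wild-type libraries, and 422, 428 and 439 CPM in those of ddcc, and fell by 0.26 ± 0.05 (log2, SE, adjusted p = 0.0024). Neither overlapped between genotypes, and both were called in each of 14 other fits, at the same threshold. The chloroplast polynucleotide phosphorylase RIF10, which degrades tailed RNA, measured 50.9 ± 1.2 CPM in wild type against 47.5 ± 3.7 CPM in ddcc (log2 fold change -0.10 ± 0.07, adjusted p = 0.29). EMB2730, also called RNR1, went the other way without a call, from 45.1 ± 1.4 to 49.2 ± 2.8 CPM (log2 fold change 0.13 ± 0.06, adjusted p = 0.16). Every ddcc library was above every wild-type library in this gene alone of the 8, beside 22.5% of all features. In 3 every ddcc library was below, beside 21%.

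Of 9 nuclear genes for mitochondrial transcription and organelle genome maintenance, 0 were called by edgeR or DESeq2, beside 28.2% of all features called by edgeR. At an unadjusted edgeR p under 0.05, 1 was lower, beside 18.6% of all features. It was the organelle DNA polymerase POLGAMMA2 (log2 fold change -0.20 ± 0.07, adjusted p = 0.052). Their median log2 fold change was -0.16, with 8 of 9 below 0, beside 50.5% of all features. MSH1, which maintains both organelle genomes, measured 4.98 ± 1.4 CPM in wild type against 4.62 ± 0.60 CPM in ddcc (log2 fold change -0.10 ± 0.20, adjusted p = 0.74).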

How the data were processed

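The authors deposited 1 table of raw counts per gene and transposable element for the 6 libraries. Per the submitters' processing notes, Trim Galore 0.6.0, cutadapt 1.15, STAR 2.7.0f and TAIR10 were used; the counting program, use of strand and treatment of reads with several matches are not given in the sources used here. The number of columns left unmatched to a library was 0. Features were filtered with filterByExpr (minimum count 10), scaled by TMM and tested together in edgeR 4.0.16 (R 4.3.3; quasi-likelihood F test) with only genotype in the model. P-values were Benjamini-Hochberg adjusted over 18498 features and called under 0.05. Every adjusted p is from this fit unless DESeq2 (1.42.0) is named. The SE of a log2 fold change is its size over the root of F. CPM used TMM-scaled totals. Shares were compared with exact two-sided permutation tests (scipy 1.17.1). Scripts were tested on simulated data. Sequences and alignments (blastn 2.17.0) came from RefSeq TAIR10.1. Replicates of a genotype differed by more than sampling noise (chi-square per degree of freedom 3.32 to 7.65).

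Named genes are the 8 of highest mean CPM in each organelle, the called genes, those with an annotated product, up to 4 called genes of smallest p per nuclear list, and DRM2, CMT2 and CMT3. Parts of the rule on rRNA genes and functional classes could not be applied to identifiers without annotation. Members, lists and tests were chosen with earlier results of these data known. The alternatives were 4 other scalings, 2 other filters, DESeq2, a robust fit, a replicate block, each library left out, and 2 stricter thresholds. One chloroplast gene with an annotated product is not reported here.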

Additional observations from a re-analysis of the deposited data

How the results depend on the processing

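Both share differences kept their direction under every alternative; the exact test cannot go below 0.1 with 3 against 3 libraries, so its p says nothing of stability. Chloroplast genes called higher numbered 1 with the chloroplast total as library size, 1 in DESeq2, 1 at an adjusted p under 0.01, 0 with a log2 threshold of 1, and 1 to 6 with 1 library left out. Plastid transcription genes called lower numbered 6 at an adjusted p under 0.01, 0 with that log2 threshold, and 6 to 11 with 1 library left out. RNA turnover genes called lower numbered 0 with it. Mitochondrial transcription and maintenance genes called lower numbered 1 under a filter at a mean of 50 counts, and 0 to 1 with 1 library left out. In the chromosome 2 range, where ABCC13 was the only call, 0 genes were called lower with library totals, in DESeq2, at an adjusted p under 0.01 or with a log2 threshold of 1, and 0 to 1 with 1 library left out. No mitochondrial gene was called under any alternative run. Shares of all features called in the fits with 1 library left out are not given here. The causes were not tested.

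Some genes without a call changed sign. With the organelle's own total as library size, the log2 fold changes of ATCG00020, ATCG00480, ATCG00340, ATCG00350, ATCG00530, ATMG01390 and ATMG00090 were -0.010, -0.0062, -0.056, -0.021, -0.048, -0.081 and -0.16. With 1 library left out, ATCG00020 ran from -0.036 to 0.26, ATCG00490 from -0.18 to 0.10, ATCG00340 from -0.10 to 0.21, ATCG00280 from -0.16 to 0.093, ATCG00350 from -0.11 to 0.23, and ATCG00790 from -0.013 to 0.19. ATMG01390 ran from -0.12 to 0.34, ATMG00090 from -0.063 to 0.16, and ATCG00530 from -0.024 to 0.086.

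Same-numbered libraries did not deviate together (correlations -0.10, -0.08 and 0.03), and wild-type replicate 1 deviated most like ddcc replicate 2 (0.12), so the numbers were not taken as pairs. With a replicate block, 3 chloroplast genes were called higher, as without it, 0 mitochondrial genes were called, and the mean share differences of 0.0149 and 0.00759 percentage points had exact sign-flip p of 0.5 and 0.75, where 3 pairs cannot give one below 0.25. With the chloroplast total as library size the median log2 fold change of chloroplast genes was -0.01. Low counts limit the 14 lesser mitochondrial genes.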
